A study of Mus musculus with 8 samples.

Results

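Ezh2-/- mouse embryonic stem cells were compared with wild type cells of the CJ7 line over every non-control probe set of an Affymetrix expression array. The comparison is between 4 of the 8 arrays of the series, 2 of Ezh2-/- cells and 2 of wild type cells, which are all the arrays carrying those labels. The other 4 arrays held Eed-/- cells and cells labelled Jarid2-/-, 2 each, and entered this comparison only through the shared estimate of spread. All 4 groups are assigned to the cj7 strain by their labels and were cultured with fetal calf serum and with LIF, the cytokine that keeps mouse stem cells undifferentiated. The labels give no age, clone number or deletion method, and do not say that replicates came from separate cultures. The p-values therefore measure only the spread within groups over the 8 arrays.

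EZH2 is the catalytic subunit of Polycomb repressive complex 2 (PRC2), which methylates lysine 27 of histone H3. EED and SUZ12 form the core of the complex with it, and JARID2 is an accessory subunit that helps to recruit it. In embryonic stem cells the mark covers the promoters of many silent developmental regulators, most of them rich in CpG dinucleotides. EZH1, a related methyltransferase, can take the place of EZH2 in the complex. The comparison asks which transcripts differ in stem cells that lack EZH2.

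Signals are linear intensities. The median signal of the arrays ranged from 322.9 to 351.5, and the correlation of log2 signals between replicates was 0.9938 in wild type and 0.9975 in Ezh2-/-. Negative control probe sets read from 23.8 to 148, so a signal at or below 148 gives only an upper bound. Where the mean of 1 group lay in that range, the fold is given as "at least", against 148, and where both did no fold is given. Differences are Ezh2-/- minus wild type in log2(signal + 16), with SE, and a gene is read from its brightest probe set. "Rose" and "fell" mean an adjusted p under 0.05 over all 22626 probe sets. Markers of embryonic stem cells were bright in both groups: Pou5f1, the pluripotency factor OCT4, read 15028 and 13541 in wild type and 17293 and 17243 in Ezh2-/-.

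Ezh2 itself was the first check of the labels. Its probe set read 4599 and 4997 in the wild type arrays and 650 and 743 in the Ezh2-/- arrays, or 14.5% of the wild type mean. The groups did not overlap (log2 -2.76, SE 0.09, adjusted p = 2.6e-07), and the residual signal stayed above every negative control. The position of the probes relative to the deleted part is not given, so the array does not tell whether the remaining RNA is a truncated transcript. By contrast, the arrays labelled Jarid2-/- did not read less Jarid2 than wild type at any of its 3 probe sets, and they are called by their label throughout. Eed in the Eed-/- arrays, at 3583 and 3638, was below its wild type signals of 10875 and 9665.

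Of 12 PRC2 subunits and partners measured, 3 rose and 4 fell, Ezh2 among them. Jarid2 read 7977 and 7931 in wild type and 10534 and 10707 in Ezh2-/- (log2 0.42, SE 0.08, adjusted p = 0.0043), and all 3 of its probe sets were higher. Eed went from 10875 and 9665 to 12213 and 12955 (log2 0.29, SE 0.07, adjusted p = 0.015), whereas its second probe set, within the negative controls, was not past the threshold (log2 -0.34). Suz12 read 7849 and 7955 in wild type and 8164 and 7943 in Ezh2-/- (log2 0.03, SE 0.05, adjusted p = 0.75), and none of its 6 probe sets passed. Epop, a partner that links the complex to elongin, went from 1182 and 800 to 2062 and 2190 (log2 1.11, SE 0.23, adjusted p = 0.0071), but its call ended without Ezh2-/- replicate 2 (1.07). The decreases of Aebp2, a DNA-binding partner (log2 -0.37, adjusted p = 0.0096), and Rbbp7, a histone-binding subunit (log2 -0.22, adjusted p = 0.0058), ended without Ezh2-/- replicate 1 (-0.32 and -0.19); that of Aebp2 also ended without wild type replicate 2 (-0.28), and that of Rbbp7 without the intensity trend (-0.22) or once arrays were set to a common median (-0.13). For Ezh1, the methyltransferase that can replace EZH2, the wild type arrays themselves stood apart at 657 and 1013, against 645 and 681 in Ezh2-/- (log2 -0.29, SE 0.19, adjusted p = 0.3). Without wild type replicate 1 the Ezh1 difference passed at -0.60. Among the 15 measured subunits of PRC1, the complex that ubiquitinates histone H2A, 1 rose and 1 fell. Kdm2b, which brings a PRC1 variant to CpG islands, went from 2840 and 2492 to 4359 and 4777 (log2 0.77, adjusted p = 0.00067). Yaf2, a partner of RING1 proteins, went from 902 and 983 to 336 and 349 (log2 -1.42, adjusted p = 0.00028).

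Over the whole array, 2130 probe sets (9.41%) rose and 3882 (17.2%) fell in Ezh2-/-, and 278 (1.23%) and 584 (2.58%) did so by 2-fold or more. Counted as genes, 1199 of 12393 (9.67%) rose and 2221 (17.9%) fell, 3420 (27.6%) in all, with a median difference of -0.08. The split depends on the scaling: increases made up 35.4% of the calls as deposited, 49.5% once the arrays were quantile normalized and 51.5% once their medians were made equal, which moved the median over probe sets from -0.069 to 0.02 and 0.013. Every gene list is read below against the shares of 9.67% and 17.9%. The 2 Ezh2-/- arrays did not overlap the 2 wild type arrays at 67.5% of genes, so lack of overlap alone sets few genes apart. Without Ezh2-/- replicate 1 the total of 6012 probe sets called fell to 2838, and without Ezh2-/- replicate 2 to 2655.

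**Figure D1:**
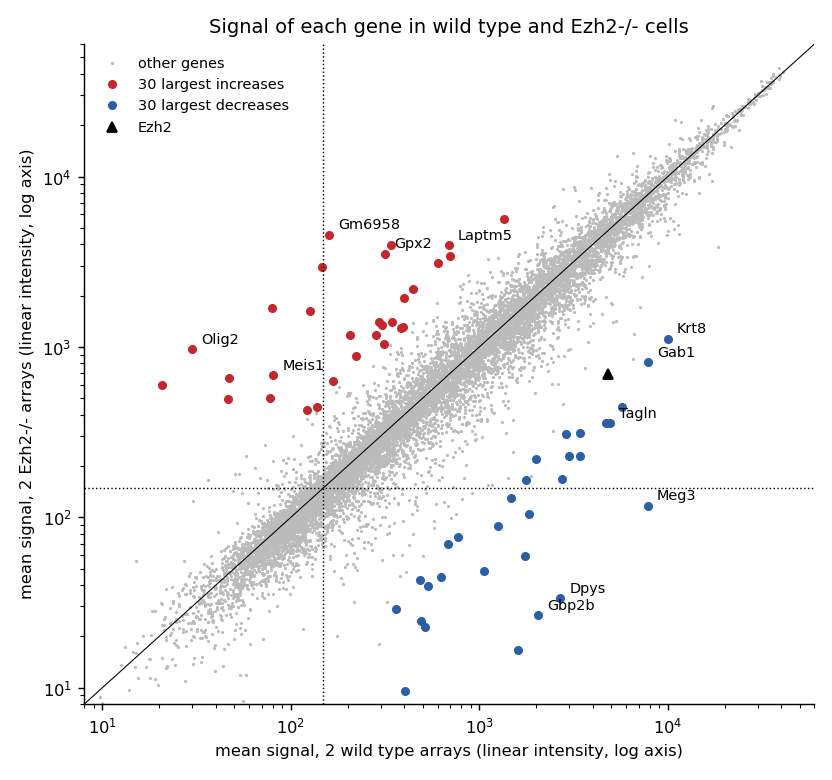
Mean signal of each of 12393 genes in the 2 wild type arrays (x axis) and the 2 Ezh2-/- arrays (y axis), linear intensity on log axes, with equal signal on the diagonal and the highest negative control, 148, as dotted lines. Red and blue points are the 30 largest increases and decreases and the triangle is Ezh2, at 4798 in wild type and 696 in Ezh2-/-.

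The 30 largest increases, among genes past the threshold whose arrays did not overlap and whose brighter mean was above the median of all signals, ran from 1.63 to 4.71 in fitted log2(signal + 16). They lay on 15 chromosomes, and 11 of them were at or below the highest negative control in wild type. The first on that scale was Gm6958, a predicted gene, at 186 and 135 in wild type and 4669 and 4420 in Ezh2-/-, but the suffix of its probe set marks probes that may also bind other transcripts.

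Transcription factors of development were among them. Olig2, a helix-loop-helix factor of motor neuron and oligodendrocyte precursors, read 30.2 and 29.8 in wild type and 974 and 968 in Ezh2-/-, at least 6.57-fold higher (adjusted p = 3.4e-08). Its neighbour Olig1, of the same family, went from 57.7 and 100 to 1633 and 1734, at least 11.4-fold higher (adjusted p = 1.9e-06). Both genes were within the negative controls in wild type and above the median array signal in Ezh2-/-. Sox7, a factor of primitive endoderm and endothelium, went from 50.6 and 42.8 to 633 and 678, at least 4.43-fold higher (adjusted p = 1.9e-05). Meis1, a homeodomain factor that binds DNA with Hox proteins, read 86.9 and 74.8 in wild type and 682 in both Ezh2-/- arrays, at least 4.61-fold higher (adjusted p = 2.7e-06). Hopx, a small homeodomain protein that does not bind DNA, was already expressed in wild type, at 806 and 590, and reached 3355 and 3463 (log2 2.28, SE 0.17, adjusted p = 3.5e-05).

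Other increases fell on enzymes, secreted proteins and cytoskeletal proteins. Gpx2, a glutathione peroxidase best known from the gut, went from 340 and 290 to 3520 and 3523 (log2 3.42, SE 0.13, adjusted p = 6.2e-07). Apoa2, an apolipoprotein of high-density lipoprotein, went from 125 and 126 to 1612 and 1639, at least 11-fold higher (adjusted p = 5e-07). In both, the Ezh2-/- arrays differed from each other far less than from wild type. Laptm5, a lysosomal membrane protein of blood cells, went from 733 and 644 to 3754 and 4134 (log2 2.49, SE 0.11, adjusted p = 1.5e-06). Lama1, the laminin alpha 1 chain of embryonic basement membranes, went from 575 and 625 to 3008 and 3202 (log2 2.34, SE 0.10, adjusted p = 1.2e-06). These 2 genes were well above the negative controls in every array. Mapt, which encodes the microtubule-binding protein tau, read 284 in both wild type arrays and 1109 and 1247 in Ezh2-/- (log2 1.99, SE 0.13, adjusted p = 1.6e-05). Fmn2, a formin that nucleates actin filaments, went from 212 and 201 to 1138 and 1196 (log2 2.41, SE 0.13, adjusted p = 5.9e-06). Tex15, needed for male meiosis, went from 248 and 340 to 1424 and 1377 (log2 2.21, SE 0.19, adjusted p = 7.9e-05).

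The rest of the 30 were Rpgrip1 (log2 3.48), Ptk2b (2.26), Htra1 (2.24), Niban1 (2.10), Cbr3 (2.04), Mcam (1.96), Plet1 (1.93), Ifngr2 (1.80), Opa3 and Plcd1 (1.70 each) and Cyp2s1 (1.69), and those within the negative controls in wild type. Of the latter, 2210409E12Rik was at least 19.9-fold, Tmem267 at least 4.03-fold, Hal at least 3.39-fold, Tchh at least 3.35-fold, Zfp386 at least 2.98-fold and Sdc2 at least 2.89-fold higher. Among these, Tchh encodes the hair follicle protein trichohyalin, Hal the enzyme that starts histidine breakdown, Ptk2b a tyrosine kinase of focal adhesions, Htra1 a secreted serine protease and Sdc2 a heparan sulfate proteoglycan. Probe sets of the same gene did not always go the same way: only 2 of 4 probe sets of Rpgrip1, 1 of 2 of Plet1 and 1 of 2 of Ifngr2 were higher. Of the 13 increases with several probe sets, 10 had all of them higher.

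**Figure D2:**
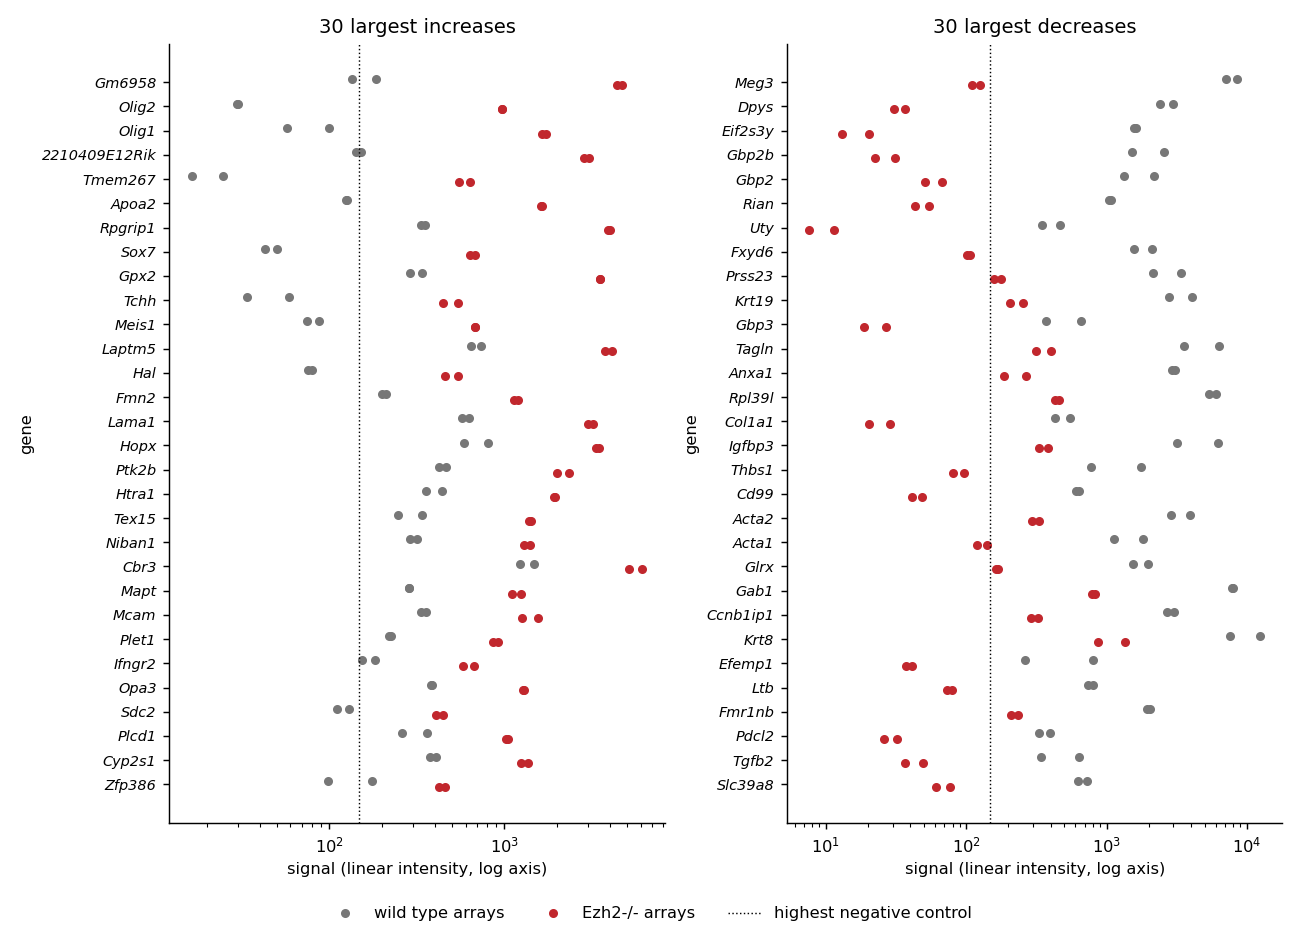
Signal (linear intensity, log axis) of the 30 largest increases (left) and 30 largest decreases (right) in each of the 2 wild type arrays (grey) and 2 Ezh2-/- arrays (red), with the highest negative control, 148, as a dotted line. For 11 of the increases the wild type mean, and for 18 of the decreases the Ezh2-/- mean, is at or left of that line.

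Promoters of the increased genes did not share one base composition. Promoters were taken from RefSeq (GRCm38.p6) as the 250 bases before each annotated start, which existed for 22 of the 30 largest increases. For a gene with several starts the CpG count is their mean. In the motif searches below, such a gene is a carrier if any of its starts holds the motif. The median count of CpG dinucleotides was 12.5 in these 22 genes and 13.5 in all 9882 measured genes with an entry, and 31.8% against 46.1% had 15 or more. All 975 increased genes with an entry had a median of 16 CpGs, and the 1753 decreased genes a median of 14. On the share with 15 or more these wider sets were above all genes, at 56.0% and 48.3%, unlike the 22. The windows of Olig2, Meis1 and Gpx2 are shown with each CpG in capitals, because these 3 genes were strongly increased and have 22, 13 and 0 of them. Olig2 is at chr16:91225300-91225549 (plus strand), Meis1 at chr11:19018970-19019219 (minus strand) and Gpx2 at chr12:76795555-76795804 (minus strand), each written 5′ to 3′ on the strand of its gene.
Olig2: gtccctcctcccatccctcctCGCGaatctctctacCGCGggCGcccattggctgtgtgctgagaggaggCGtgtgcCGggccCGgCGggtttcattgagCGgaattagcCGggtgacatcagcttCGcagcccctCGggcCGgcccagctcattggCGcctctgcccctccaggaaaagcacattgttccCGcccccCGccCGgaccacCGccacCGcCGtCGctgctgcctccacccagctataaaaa
Meis1: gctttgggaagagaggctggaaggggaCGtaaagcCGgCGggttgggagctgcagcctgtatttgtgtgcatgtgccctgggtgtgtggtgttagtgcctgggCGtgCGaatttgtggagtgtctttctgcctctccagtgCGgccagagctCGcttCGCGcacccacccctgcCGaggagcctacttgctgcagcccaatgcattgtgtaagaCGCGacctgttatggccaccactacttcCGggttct
Gpx2: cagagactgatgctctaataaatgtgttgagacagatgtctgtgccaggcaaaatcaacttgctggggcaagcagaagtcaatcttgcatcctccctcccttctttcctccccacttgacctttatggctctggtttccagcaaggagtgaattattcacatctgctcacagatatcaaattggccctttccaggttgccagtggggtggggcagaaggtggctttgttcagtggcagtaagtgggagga

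The 30 largest decreases, chosen by the same filter, ran from -5.87 to -3.03 in fitted log2(signal + 16) and lay on 18 chromosomes. In 18 of them the Ezh2-/- mean was at or below the highest negative control. Besides the maternally expressed RNAs Meg3 (at least 52.8-fold lower) and Rian (at least 7.15-fold), they held interferon-induced, contractile, matrix, keratin and metabolic genes. The 2 wild type arrays differed more in these genes than elsewhere, with a median absolute difference of 0.39 in log2 against 0.13 over all genes. Wild type replicate 1 was the higher of the 2 in 24 of the 30.

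Dpys, the dihydropyrimidinase of pyrimidine breakdown, read 2409 and 2979 in wild type and 36.9 and 30.4 in Ezh2-/-, at least 18.2-fold lower (adjusted p = 8.1e-08), with all 3 of its probe sets lower. Fxyd6, a regulator of the sodium pump, went from 1559 and 2093 to 106 and 101, at least 12.3-fold lower (adjusted p = 1.9e-05). Cd99, a surface adhesion protein, went from 634 and 610 to 48.6 and 41, at least 4.21-fold lower (adjusted p = 6.2e-07). These 3 genes were clearly expressed in wild type and within the negative controls in Ezh2-/-. Gab1, a docking protein downstream of receptor tyrosine kinases, went from 7972 and 7780 to 791 and 834 (log2 -3.25, SE 0.07, adjusted p = 3.4e-08). Rpl39l, a copy of the ribosomal protein gene Rpl39, went from 6004 and 5412 to 426 and 458 (log2 -3.64, SE 0.11, adjusted p = 1.4e-07). Glrx, the glutaredoxin that reduces glutathionylated proteins, went from 1979 and 1536 to 168 and 164 (log2 -3.27, SE 0.13, adjusted p = 1.1e-06). In contrast to the first group, these stayed above the negative controls in Ezh2-/-.

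Further decreases were Ltb, which encodes the cytokine lymphotoxin beta (802 and 742 to 73.2 and 79.8, at least 5.22-fold lower), and Slc39a8, a zinc importer (731 and 629 to 77.2 and 61.2, at least 4.6-fold lower). Ccnb1ip1, known from meiotic crossing-over, went from 3010 and 2719 to 292 and 324. Tgfb2, a ligand of the transforming growth factor family, went from 632 and 339 to 49.2 and 36.5, at least 3.28-fold lower. Efemp1, a fibulin of the extracellular matrix, had wild type arrays far apart, at 800 and 263, against 37.4 and 41.1 in Ezh2-/-, at least 3.6-fold lower (adjusted p = 0.00087). Others among the 30 were Prss23 (log2 -3.87), Fmr1nb (-3.09), Pdcl2 (at least 2.45-fold lower) and the Y-linked genes Eif2s3y (at least 10.8-fold) and Uty (at least 2.74-fold). Of the 15 decreases with several probe sets, 14 had all of them lower; the exception was Acta2, where 1 of 2 was lower.

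Interferon-induced genes encode antiviral proteins and guanosine triphosphatases that interferons switch on through STAT factors and interferon regulatory factors. Of 37 measured, 19 fell, 2 rose and 16 were not past the threshold, with a median of -0.48 (all genes -0.08). In 14 of the 37 both groups were at or below the highest negative control. With each array left out in turn, 13 of the 19 stayed lower in every fit.

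The guanylate-binding proteins had the largest decreases of the list. Gbp2b read 2573 and 1510 in wild type and 22.4 and 30.9 in Ezh2-/-, at least 13.8-fold lower (adjusted p = 1.4e-06). Gbp2 went from 2179 and 1335 to 67.2 and 51, at least 11.9-fold lower (adjusted p = 5.6e-06). Gbp3 went from 660 and 372 to 26.7 and 18.8, at least 3.49-fold lower (adjusted p = 2.2e-05). All were expressed in both wild type arrays and within the negative controls in both Ezh2-/- arrays, but the genes are close paralogs and a probe set may read more than 1 of them. Irgm2, an immunity-related guanosine triphosphatase, went from 156 and 225 to 43.2 and 37.6, at least 1.29-fold lower (adjusted p = 6.9e-05). Irf1, a transcription factor of this response, went from 2413 and 2180 to 785 and 796 (log2 -1.52, SE 0.09, adjusted p = 1.1e-05). The brightest members not past the threshold were Trim25 (log2 -0.08), Eif2ak2 (-0.13) and Irf9 (-0.23).

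Antigen presentation genes, which load peptides on class I molecules, gave 9 lower, 1 higher and 5 not past of 15 measured (median -0.46), and 8 of the 9 held with each array left out. Psmb8, an immunoproteasome subunit, went from 386 and 353 to 126 and 111, at least 2.5-fold lower (adjusted p = 5e-05). B2m, the invariant light chain of class I molecules, went from 2295 and 2450 to 1084 and 977 (log2 -1.19, adjusted p = 0.0011). H2-D1, a class I heavy chain with near-identical relatives, went from 760 and 846 to 332 and 314 (log2 -1.27, adjusted p = 0.00043), and Tapbp, the peptide-loading factor tapasin, from 1547 and 1084 to 590 and 568 (log2 -1.14, adjusted p = 0.00082). The member that rose was Pdia3, a disulfide isomerase of the endoplasmic reticulum, from 3671 and 2779 to 8252 and 8425 (log2 1.38, adjusted p = 0.00011). Cytokine receptor subunits near Olig2 went both ways. Ifngr2, a subunit of the interferon gamma receptor, went from 154 and 182 to 673 and 582 (log2 1.80, SE 0.12, adjusted p = 2.1e-05), though only at 1 of its 2 probe sets. It lies 5 measured genes from Olig2 on chromosome 16. Between Olig1 and Ifngr2, Ifnar2 fell (log2 -0.56, adjusted p = 0.01), Il10rb had both group means within the negative controls, and Ifnar1 was not past the threshold (-0.08, adjusted p = 0.73).

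The element that interferon regulatory factors bind was searched in the promoters, on both strands, as GAAA and GAAA with any 2 bases between them. Of 31 interferon-induced genes with an entry 15 held it (48.4%), and of the 18 that fell 11 did (61.1%), against 331 of all 9882 measured genes (3.35%). The members were listed as interferon-induced, so their excess over all genes is not read as a result about Ezh2-/-. Of all 1753 decreased genes with an entry, 70 held the element (3.99%). Such a match is a description of the letters and not a site shown to be bound. Among carriers, Rsad2, Ifit1 and Ifit3 were not past the threshold and Bst2 rose. The windows of Gbp2b, Gbp2, Gbp3 and B2m are shown because these genes were expressed in wild type, fell and carry the element, which is in capitals. It begins 137, 59 and 139 bases before the start in Gbp2b, Gbp2 and B2m, and 45 and 39 bases before it in Gbp3, where 2 matches overlap. The windows are chr3:142594597-142594846 (Gbp2b), chr3:142620413-142620662 (Gbp2), chr3:142559794-142560043 (Gbp3, the first of its starts) and chr2:122147437-122147686 (B2m), all on the plus strand of GRCm38.p6. The window of the other Gbp3 start, chr3:142560106-142560355, is not shown and held no match.
Gbp2b: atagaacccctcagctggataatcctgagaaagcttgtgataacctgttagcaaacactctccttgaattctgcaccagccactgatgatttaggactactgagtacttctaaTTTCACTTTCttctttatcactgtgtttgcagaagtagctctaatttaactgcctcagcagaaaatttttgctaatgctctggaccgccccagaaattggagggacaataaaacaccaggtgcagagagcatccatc
Gbp2: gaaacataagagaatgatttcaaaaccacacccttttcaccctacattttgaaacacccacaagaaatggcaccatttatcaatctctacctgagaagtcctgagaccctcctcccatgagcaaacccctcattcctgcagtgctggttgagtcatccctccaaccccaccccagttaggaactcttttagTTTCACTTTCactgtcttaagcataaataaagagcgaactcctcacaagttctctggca
Gbp3: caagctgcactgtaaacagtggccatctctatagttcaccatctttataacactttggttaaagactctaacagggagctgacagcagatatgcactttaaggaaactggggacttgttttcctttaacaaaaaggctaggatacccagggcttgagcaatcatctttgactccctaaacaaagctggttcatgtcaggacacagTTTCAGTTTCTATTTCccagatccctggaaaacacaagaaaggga
B2m: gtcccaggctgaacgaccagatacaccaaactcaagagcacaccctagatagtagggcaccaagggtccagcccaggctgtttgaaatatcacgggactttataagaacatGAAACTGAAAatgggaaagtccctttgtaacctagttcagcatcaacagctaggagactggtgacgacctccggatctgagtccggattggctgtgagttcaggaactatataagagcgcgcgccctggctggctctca

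The Gbp genes are neighbours on chromosome 3, and the run of lower genes went past them. In the order of measured genes, Gbp7 (log2 -1.04), Gbp3, Gbp2b, Gbp2, Kyat3 (-0.61) and Gtf2b (-1) all fell, while Pdlim5 on one side (0.27) and Lmo4 on the other (0.16) were not past the threshold. Gtf2b, a general transcription factor, read 2627 in wild type and 1303 in Ezh2-/- on average. Of the 59 measured neighbours of the 30 largest decreases 20 fell (33.9%), and of the neighbours of all decreased genes 24.2% did, against 17.9% of all genes. The 20 include genes that are themselves among the 30, since Gbp3, Gbp2b and Gbp2 adjoin each other, as do Meg3 and Rian. The excess over 24.2% is therefore not read as a result. For the 30 largest increases, where Olig1 and Olig2 adjoin, 9 of 60 neighbours rose (15%), against 15.3% for all increased genes and 9.67% of all genes.

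Genes of the actin cytoskeleton and smooth muscle, many of them known targets of serum response factor, gave 23 lower, 3 higher and 6 not past of 32 measured, with a median of -1. A decrease of 2-fold or more, found in 2.81% of all genes, was found in 16, and 17 of the 23 held with each array left out. Tagln, the actin-binding protein transgelin, read 6357 and 3556 in wild type and 402 and 312 in Ezh2-/- (log2 -3.69, SE 0.32, adjusted p = 8.5e-05). Acta2, smooth muscle actin, went from 3959 and 2878 to 332 and 294 (log2 -3.37, SE 0.30, adjusted p = 0.0001) at the brighter of its 2 probe sets. Acta1, skeletal actin, went from 1810 and 1133 to 141 and 119, at least 9.95-fold lower (adjusted p = 8.5e-05). These decreases exceeded the gap between the wild type arrays, in which replicate 1 was the higher at 27 of the 32 genes by a median of 0.26. Tpm1, a tropomyosin, went from 7461 and 5763 to 1301 and 1087 (log2 -2.45, adjusted p = 0.00012). Against the list, Csrp2, a LIM protein of smooth muscle, rose from 5728 and 5623 to 9105 and 9119 (log2 0.68, adjusted p = 6.2e-05). Srf, which encodes serum response factor, was not past the threshold (1234 and 1017 to 1097 and 1048, adjusted p = 0.74), nor was Tpm2 (log2 -0.48, adjusted p = 0.059).

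The CArG box, the motif of serum response factor, was found in 7 of 28 promoters of the list (25%) and in 6 of the 20 that fell (30%), against 158 of 9882 measured genes (1.6%). Since many members are known targets of that factor, the excess over all genes is not read as a result about Ezh2-/-. Of all 1753 decreased genes with an entry, 42 held the box (2.4%). Srf was the carrier that was not past the threshold. The window of Acta1, at chr8:123894776-123895025 (minus strand), is shown with its CArG box in capitals, 73 bases before the start, as a carrier with a large decrease.
Acta1: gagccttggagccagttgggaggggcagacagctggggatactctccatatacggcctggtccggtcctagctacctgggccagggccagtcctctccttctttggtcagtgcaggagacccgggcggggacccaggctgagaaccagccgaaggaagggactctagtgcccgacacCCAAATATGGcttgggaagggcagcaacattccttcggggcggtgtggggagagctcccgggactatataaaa

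Markers of fibroblasts, the usual feeder cells of stem cell cultures, moved in the same direction. Of 19 measured 10 fell and 9 were not past the threshold (median -0.47), and 5 of the 10 held with each array left out. Their summed signal was 4230 and 5556 in wild type and 2516 and 2367 in Ezh2-/-. In 10 of the 19, among them the defining markers Dcn, Lum, Postn, Pdgfrb and Prrx1, both groups were at or below the highest negative control. Col3a1, Fap, Fbln2 and Twist2, counted among those that fell, were also in that range, so no fold can be read for them. Thy1, another such marker, read 342 and 395 in wild type and 405 and 420 in Ezh2-/- (log2 0.16, adjusted p = 0.33). The part of such cells in the lower contractile, matrix and keratin genes was not tested, and in bulk RNA fewer cells of a type and less RNA per cell cannot be told apart.

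**Figure D3:**
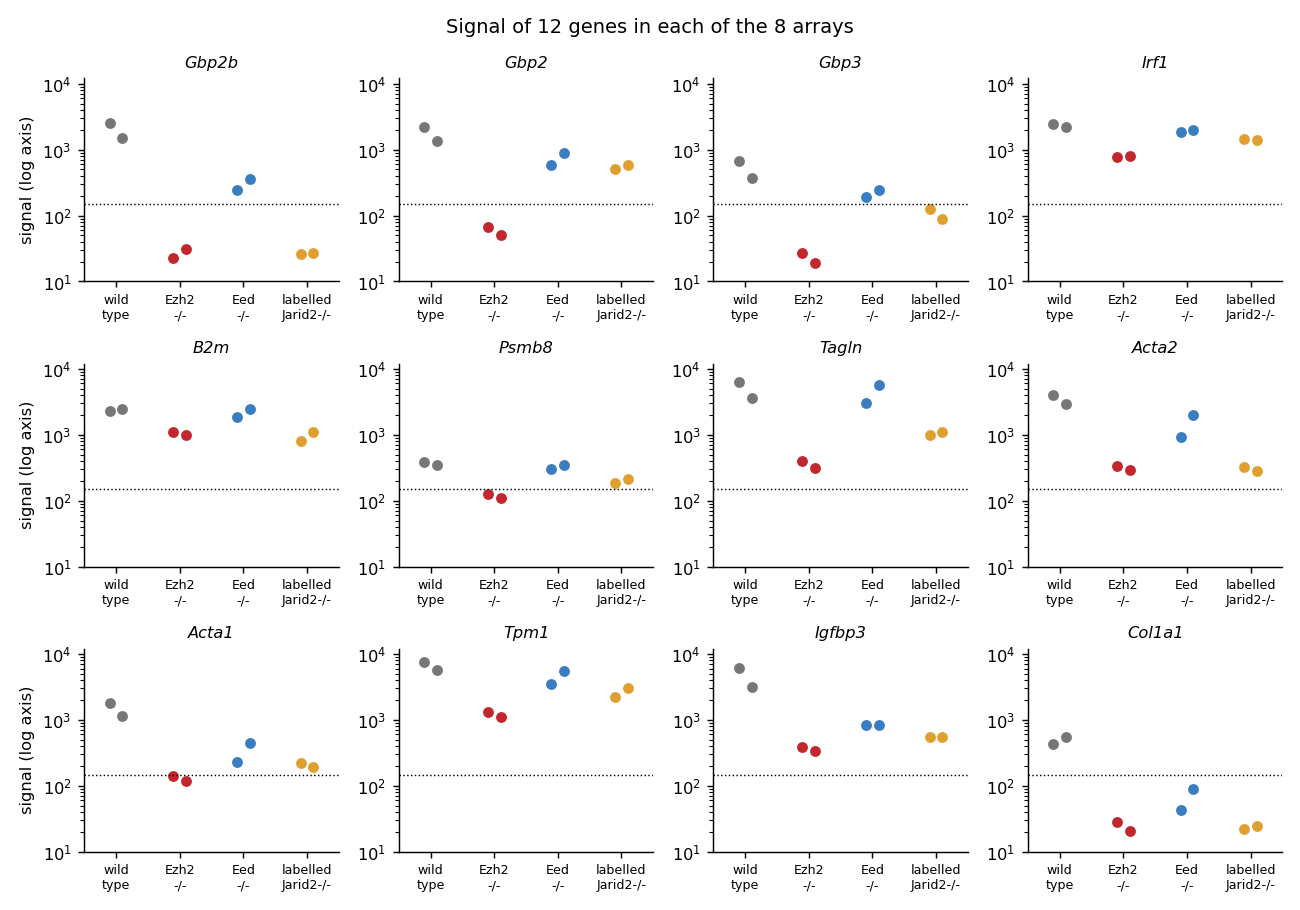
Signal (linear intensity, log axis) of 12 decreased interferon, antigen presentation, contractile and matrix genes in each of the 8 arrays, with the highest negative control, 148, as a dotted line. For all 12 genes both Ezh2-/- arrays lie below both wild type arrays. For Irf1, Gbp2, Gbp3, Tagln, Acta1 and Igfbp3 they also lie below the Eed-/- arrays and those labelled Jarid2-/-. For Gbp2b, Acta2 and Col1a1 they overlap the arrays labelled Jarid2-/-.

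Collagens, laminins and other basement membrane genes went both ways, with 10 lower, 4 higher and 18 not past of 32 (median -0.15). Col1a1, the alpha 1 chain of fibrillar collagen I, went from 432 and 548 to 28.6 and 20.4, at least 3.31-fold lower (adjusted p = 2.2e-05). Its partner chain Col1a2 went from 856 and 1471 to 155 and 153 (log2 -2.74, SE 0.25, adjusted p = 0.00013), and Col5a1, of collagen V, from 749 and 707 to 157 and 145 (log2 -2.16, adjusted p = 0.00014). Nid2, the basement membrane linker nidogen 2, fell less, from 4097 and 4128 to 1847 and 1987 (log2 -1.10, adjusted p = 6.2e-05). Lama1 rose, as given above, while its laminin partner Lamb1 read 3272 and 3070 in wild type and 3042 and 3063 in Ezh2-/- (log2 -0.05, adjusted p = 0.72). Insulin-like growth factor, its binding proteins and matricellular proteins gave 14 lower, none higher and 14 not past of 28 (median -0.39), and 8 lower without Ezh2-/- replicate 2. Igfbp3, the main carrier of the growth factor in serum, went from 6201 and 3157 to 385 and 333 (log2 -3.57, SE 0.25, adjusted p = 2.6e-05). Thbs1, thrombospondin 1, went from 1756 and 771 to 96.5 and 81.1, at least 8.54-fold lower (adjusted p = 0.00028). In both genes wild type replicate 1 was well above replicate 2, and the Ezh2-/- arrays were below either. Igfbp2 was not past the threshold, at 4829 and 6996 in wild type and 5477 and 5039 in Ezh2-/-.

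Keratins and epithelial junction genes gave 8 lower, 6 higher and 18 not past of 32 (median -0.09). Krt19 and Krt8, keratins of simple epithelia, went from 4054 and 2792 to 253 and 204 and from 12399 and 7642 to 1362 and 872 (log2 -3.80 and -3.14, adjusted p = 6.1e-05 and 0.0007). Dsp, the desmosomal linker desmoplakin, went from 2813 and 2122 to 378 and 259 (log2 -2.90, SE 0.26, adjusted p = 0.00011). Members that rose included 2 adhesion proteins. Epcam, an adhesion molecule of stem cells and epithelia, went from 6347 and 6558 to 10400 and 10437 (log2 0.69, SE 0.05, adjusted p = 1.8e-05), and the desmosomal cadherin Dsg2 from 1874 and 2238 to 4398 and 4438 (log2 1.10, adjusted p = 0.00078). S100 proteins, annexins, galectins and vimentin gave 12 lower, 2 higher and 11 not past of 25 (median -0.32), and 7 lower without Ezh2-/- replicate 2. Annexins, membrane-binding proteins regulated by calcium, were among those that fell. Anxa1 went from 3069 and 2933 to 268 and 187 (log2 -3.65, SE 0.30, adjusted p = 6.9e-05) and Anxa3 from 3437 and 2106 to 537 and 389 (log2 -2.52, SE 0.35, adjusted p = 0.0012). Anxa5 and Anxa2 fell less (log2 -1.66 and -1.63, adjusted p = 0.0013 and 0.0014). Vim, the intermediate filament vimentin, went from 11789 and 9803 to 4733 and 5101 (log2 -1.13, adjusted p = 0.00066).

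**Figure D4:**
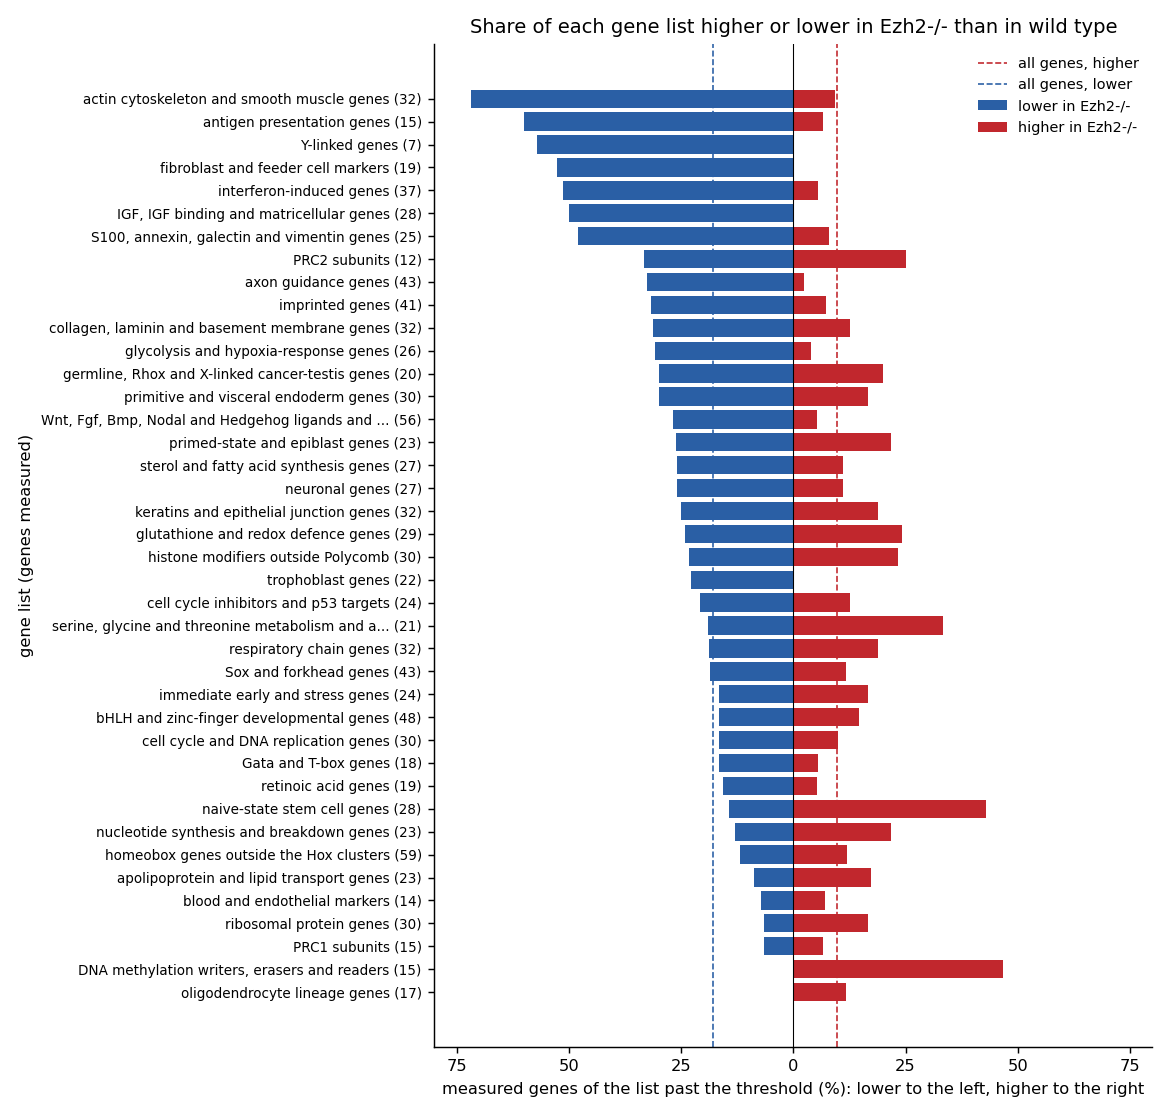
Percent of the measured genes of each list that fell (blue, to the left) or rose (red, to the right) in Ezh2-/- against wild type, with the shares over all genes, 17.9% lower and 9.67% higher, as dashed lines. Actin genes (23 of 32 lower) and antigen presentation genes (9 of 15) reach furthest to the left, and DNA methylation genes (7 of 15 higher) and naive-state genes (12 of 28) furthest to the right.

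Extracellular signals were more often lower than higher, as were all genes (17.9% lower, 9.67% higher), a split that depends on the scaling. Of 56 measured Wnt, Fgf, Bmp, Nodal and Hedgehog pathway genes 15 fell (26.8%) and 3 rose (5.36%), with a median of -0.21. Only 5 of the 15 held with each array left out. Fgf8, a growth factor of gastrulation, went from 238 and 201 to 62.2 and 40, at least 1.48-fold lower (adjusted p = 0.00022), and Bmp2, a bone morphogenetic protein, from 223 and 175 to 55.5 and 51.3, at least 1.35-fold lower (adjusted p = 0.0024). Ptch1, the Hedgehog receptor and a target of the pathway, went from 5055 and 5989 to 2692 and 2647 (log2 -1.04, adjusted p = 0.00019), and Gli2, a transcription factor of the same pathway, from 3079 and 3618 to 1261 and 1278 (log2 -1.38, adjusted p = 7.9e-05). Fgf4, the growth factor made by stem cells, rose from 2317 and 3099 to 4848 and 4591 (log2 0.81, adjusted p = 0.0015). Nodal and Bmp4 were not past the threshold (log2 0.11 and 0.04). Axon guidance genes gave 14 lower, 1 higher and 28 not past of 43 (median -0.13), with 9 lower without wild type replicate 2 or Ezh2-/- replicate 1 and 8 without Ezh2-/- replicate 2. Slit3, a secreted repellent, went from 313 and 337 to 84.2 and 75, at least 2.2-fold lower (adjusted p = 7.4e-06). The semaphorin receptor Nrp2 went from 628 and 479 to 175 and 177 (log2 -1.56, adjusted p = 0.00018), and the netrin receptor Unc5b from 1613 and 1352 to 670 and 657 (log2 -1.14, adjusted p = 0.001).

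Genes of the naive stem cell state gave 12 higher, 4 lower and 12 not past of 28 (median 0.19), and 6 higher without Ezh2-/- replicate 1 or without replicate 2. The core factors Sox2 and Nanog were not past the threshold (log2 0.02 and -0.19, adjusted p = 0.86 and 0.25), although Nanog passed at -0.36 without wild type replicate 1. Klf5, a Kruppel-like factor of the naive state, went from 4987 and 4748 to 10343 and 10416 (log2 1.09, SE 0.07, adjusted p = 2.1e-05). Nr0b1, the orphan receptor DAX1, went from 4564 and 4010 to 7745 and 7920 (log2 0.87, adjusted p = 0.00041). Other naive-state genes fell just as clearly. Zfp42, the zinc finger protein REX1, went from 18004 and 18757 to 3714 and 3989 (log2 -2.25, SE 0.07, adjusted p = 2.4e-07). Klf2 went from 10707 and 12150 to 4704 and 4519 (log2 -1.30, adjusted p = 3.4e-06), and Fbxo15, an F-box protein of stem cells, from 7389 and 8568 to 3074 and 2889 (log2 -1.41, adjusted p = 5.7e-06). Members of 1 family thus went opposite ways, Klf5 up and Klf2 down.

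Writers, erasers and readers of DNA methylation gave 7 higher, none lower and 8 not past of 15 (median 0.32), and 5 of the 7 held with each array left out. Dnmt3l, the cofactor of the de novo methyltransferases, went from 6144 and 4554 to 13032 and 13359 (log2 1.32, SE 0.14, adjusted p = 0.00029). Dnmt3b, 1 of these enzymes, went from 10186 and 9291 to 13312 and 13162 (log2 0.44, SE 0.05, adjusted p = 0.00052). Mbd2, a reader of methylated CpG, went from 759 and 572 to 1400 and 1396 (log2 1.07, SE 0.15, adjusted p = 0.0013). The maintenance enzyme Dnmt1 read 4882 and 5423 in wild type and 5373 and 5154 in Ezh2-/- (log2 0.03, adjusted p = 0.80). Among 30 histone modifiers outside Polycomb 7 rose and 7 fell. Ehmt2, the histone H3 lysine 9 methyltransferase G9a, went from 2144 and 2155 to 3621 and 3780 (log2 0.78, adjusted p = 0.00087), and Kdm1a, a histone demethylase, from 8278 and 10219 to 6023 and 6105 (log2 -0.60, adjusted p = 0.0029).

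Developmental transcription factors, the classical targets of PRC2, passed the threshold at about the rate of all genes when both directions were pooled. Of 59 homeobox genes outside the Hox clusters 7 rose, 7 fell and 45 were not past the threshold, so that 23.7% changed against 27.6% of all genes, with both groups within the negative controls in 24. Meis2, the relative of Meis1, went from 123 and 81.4 to 302 and 299, at least 2.03-fold higher (adjusted p = 0.00035), and Isl1, a factor of motor neurons and heart, from 79.9 and 69.5 to 178 and 154, at least 1.12-fold higher (adjusted p = 0.0013). Even after these increases the signals stayed below the median of all signals, 336.7. Among 43 Sox and forkhead genes 5 rose and 8 fell (30.2% in all), and among 48 helix-loop-helix and zinc-finger genes 7 rose and 8 fell (31.2%). Increases of 2-fold or more, found in 1.2% of all genes, were found in 4 homeobox, 3 Sox and forkhead and 4 helix-loop-helix and zinc-finger genes. Decreases of that size, found in 2.81% of all genes, numbered 1, 0 and 3 in the same lists. No set test was run on these counts. Zic1, a neural zinc-finger factor, went from 74.8 and 54.2 to 220 and 169, at least 1.31-fold higher (adjusted p = 0.00039). Tcf15, a mesodermal helix-loop-helix factor also present in stem cells, went from 2396 and 2352 to 4805 and 4928 (log2 1.03, adjusted p = 0.00039), and Sox4 fell from 3419 and 3503 to 1873 and 1722 (log2 -0.94, adjusted p = 0.00037). Of 18 Gata and T-box genes 1 rose and 3 fell. The increase was Tbx3, from 1758 and 1939 to 3402 and 3078 (log2 0.80, adjusted p = 0.00065). None of the 3 decreases held with each array left out.

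The increase of Olig1 and Olig2 did not extend to other oligodendrocyte genes: they were the only 2 past the threshold among 17 measured. Myrf, a factor of myelinating cells, read 2222 and 2094 in wild type and 1573 and 1785 in Ezh2-/- (log2 -0.36, adjusted p = 0.083). Of 27 neuronal genes 3 rose and 7 fell. Besides Mapt, Celf4, an RNA-binding protein of neurons, went from 501 and 546 to 1330 and 1441 (log2 1.38, adjusted p = 2.9e-05), while Gap43, a growth cone protein, fell from 1268 and 1038 to 586 and 584 (log2 -0.95, adjusted p = 0.00092). Primitive and visceral endoderm genes gave 5 higher and 9 lower of 30. Sox7, Lama1 and Apoa2 rose, as given above, but Gata4 and Gata6, the defining factors of that lineage, were not past the threshold (log2 0.19 and 0.01). Trophoblast genes gave none higher and 5 lower of 22, led by Tfap2c, an AP-2 factor, from 3202 and 4484 to 1382 and 1286 (log2 -1.50, adjusted p = 0.00072). Blood and endothelial markers gave 1 higher and 1 lower of 14, the latter Cd44, a hyaluronan receptor, from 251 and 197 to 52.9 and 44.9, at least 1.51-fold lower. Primed-state genes gave 5 higher and 6 lower of 23, among them Etv4, an ETS factor downstream of Fgf signals, from 796 and 759 to 1712 and 1914 (log2 1.20, adjusted p = 0.00015).

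Metabolic lists were split. Glutathione and redox genes gave 7 higher and 7 lower of 29 and included Gpx2. Nqo1, a quinone reductase, went from 934 and 786 to 1972 and 1726 (log2 1.09, adjusted p = 0.0015), and Gstp1, a glutathione transferase, fell from 9686 and 10073 to 4467 and 4576 (log2 -1.12, SE 0.07, adjusted p = 1e-05). Of 23 apolipoprotein and lipid transport genes 4 rose and 2 fell. Besides Apoa2, Apoe, a main lipid carrier, went from 5326 and 7728 to 14081 and 13322 (log2 1.09, adjusted p = 0.0012), and Fabp5, a fatty acid binding protein, fell from 7438 and 7069 to 2780 and 2354 (log2 -1.50, adjusted p = 8.7e-05). Sterol and fatty acid synthesis gave 3 higher and 7 lower of 27. Scd2, a desaturase, went from 14701 and 14543 to 8126 and 7813 (log2 -0.87, adjusted p = 0.00022), and Elovl6, an elongase of fatty acids, rose from 2110 and 2198 to 4403 and 4523 (log2 1.05, adjusted p = 8.5e-05). Among 21 genes of serine and glycine metabolism and the amino acid response 7 rose and 4 fell. Atf4, the transcription factor of that response, went from 4912 and 5499 to 8588 and 8944 (log2 0.75, adjusted p = 9.7e-05), whereas Psat1, an enzyme of serine synthesis, went from 10961 and 12857 to 8124 and 7941 (log2 -0.56, adjusted p = 0.0013). Of 23 nucleotide genes 5 rose and 3 fell. Respiratory chain genes gave 6 in each direction of 32, none by 2-fold. Glycolysis and hypoxia-response genes gave 1 higher and 8 lower of 26, but here the wild type arrays differed by a median of 0.36, with replicate 1 the lower at all 26, and 2 of the 8 decreases held with each array left out. Ldhb, a lactate dehydrogenase subunit, was at 3565 and 5359 in wild type and 1707 and 1422 in Ezh2-/- (log2 -1.48, adjusted p = 0.0019).

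Imprinted genes gave 3 higher and 13 lower of 41, and 9 of the 13 held with each array left out. Outside the Meg3 locus, Sgce, a sarcoglycan, went from 522 and 518 to 142 and 136, at least 3.52-fold lower (adjusted p = 8.6e-05), and Slc38a4, an amino acid transporter, from 2912 and 2965 to 965 and 962 (log2 -1.59, adjusted p = 0.00015). Impact, a translation regulator, went from 5242 and 4699 to 1892 and 1715 (log2 -1.45, adjusted p = 1.8e-05). Germline and Rhox genes gave 4 higher and 6 lower of 20, with Hormad1, a meiotic chromosome axis protein, from 352 and 424 to 144 and 150, at least 2.62-fold lower (adjusted p = 0.00045). Of 7 Y-linked genes 4 fell, and 3 of the 4 held with each array left out. The call that did not hold was Zfy2 (adjusted p = 0.046), with both group means within the negative controls. Eif2s3y, a subunit of a translation initiation factor, read 1627 and 1567 in wild type and 20.4 and 13.1 in Ezh2-/-, and Uty, a histone demethylase relative, 464 and 345 against 7.64 and 11.5. Uba1y, a ubiquitin-activating enzyme, went from 338 and 308 to 34 and 29.9, at least 2.18-fold lower. All 3 were within the negative controls in both Ezh2-/- arrays and above them in wild type; Sry, Usp9y and Kdm5d were not past the threshold, the last 2 with both groups at or below the highest negative control.

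Proliferation genes changed at a rate near that of all genes (27.6%). Cell cycle and replication genes gave 3 higher and 5 lower of 30 (26.7%), and Ccnd3, a D-type cyclin, went from 3243 and 3482 to 7157 and 7308 (log2 1.10, SE 0.07, adjusted p = 1.6e-05). Cell cycle inhibitors and p53 targets gave 3 higher and 5 lower of 24 (33.3%). Cdkn1a, the inhibitor p21, went from 2028 and 2278 to 856 and 793 (log2 -1.37, adjusted p = 0.0049), while Pmaip1, the cell death protein NOXA, went from 910 and 825 to 2719 and 2564 (log2 1.59, adjusted p = 4.4e-05). Among 30 ribosomal protein genes 5 rose and 2 fell. Immediate early and stress genes gave 4 in each direction of 24, and retinoic acid genes 1 higher and 3 lower of 19. Dusp6, a phosphatase induced by ERK signals, went from 2670 and 1680 to 4467 and 4997 (log2 1.15, adjusted p = 0.0021), and Cyp26a1, which degrades retinoic acid, from 292 and 195 to 75.9 and 68.2, at least 1.65-fold lower (adjusted p = 0.00032).

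The differences were not spread evenly over the genome. Over 5923 genes with a mean signal above 500, the median was -0.038, 15.4% rose and 20.2% fell. On chromosome 8 the median of 339 genes was -0.306, with 50.7% lower and 6.19% higher. Medians of -0.222 on chromosome 1, -0.196 on chromosome 19, -0.173 on chromosome X and -0.143 on chromosome 11 followed, with 37.3%, 32%, 37.1% and 30.3% of genes lower. The highest median was 0.082, on chromosome 7. For chromosomes 8, 1 and 19 the same wild type arrays gave low medians against both other mutants too, with chromosome 8 at -0.341 in Eed-/- and at -0.3 in the arrays labelled Jarid2-/-. Ezh2-/- minus the mean of those mutants had a median of 0.007 on chromosome 8, -0.037 on chromosome 1 and -0.003 on chromosome 19. Chromosome X differed from these: its median was 0.015 in Eed-/- minus wild type, -0.081 in the arrays labelled Jarid2-/- minus wild type, and -0.136 in Ezh2-/- minus the mean of the other mutants. Copy number was not measured here, and its part in these medians was not tested. The lowest genes on chromosome 8 were Acta1, Gab1 and Zfp42, and on X they were Fmr1nb, Zdhhc9, a palmitoyltransferase (log2 -1.53), and Tro, the adhesion protein trophinin (-1.52). Genes on these chromosomes also rose, such as Tex15 and Atp11a, a lipid flippase (log2 1.14), on chromosome 8 and Nr0b1 on X.

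**Figure D5:**
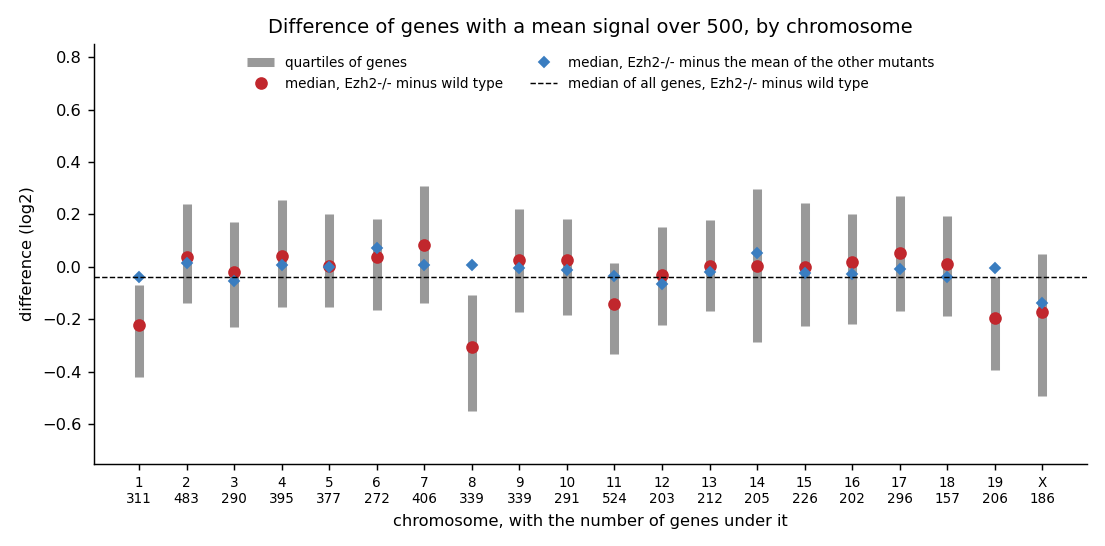
Median difference in log2 by chromosome, over genes with a mean signal above 500, for Ezh2-/- minus wild type (red, with grey bars from the lower to the upper quartile) and Ezh2-/- minus the mean of the other mutants (blue), with the number of genes under each chromosome and the median of all genes, -0.038, as a dashed line. Chromosomes 8, 1 and 19 are low only in the red points, chromosome X in both, and chromosome Y, with 1 gene, is not drawn.

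Ezh2-/- cells also differed from the other mutants. Against the mean of Eed-/- and the arrays labelled Jarid2-/-, 1522 probe sets (6.73%) were higher and 2208 (9.76%) lower, and by gene 874 (7.05%) and 1330 (10.7%). This test uses the same Ezh2-/- arrays as the comparison with wild type. Without Ezh2-/- replicate 1 or 2 the total of 3730 became 1129 or 1010, and without Eed-/- replicate 2 it became 2468. Among genes higher than in the mutants, Cbr3, a carbonyl reductase, read 1481 and 1235 in wild type and 6122 and 5162 in Ezh2-/-. It read 1163 and 1000 in Eed-/- and 1174 and 1023 in the arrays labelled Jarid2-/- (log2 2.35 against their mean, SE 0.12, adjusted p = 5.5e-06). Mcam, an adhesion protein of vessels, followed the same order, with 1255 and 1548 in Ezh2-/- and from 332 to 386 in every other array (log2 1.92, adjusted p = 9.3e-06). Tgds, a sugar nucleotide dehydratase relative, read 1338 and 1418 in Ezh2-/- and at most 469 elsewhere (log2 1.79, adjusted p = 1.4e-05). In these 3 genes the Ezh2-/- arrays stood apart from all 6 others, but lack of overlap with the other mutants was a condition for choosing them. Gpx2 was graded instead: it read 1320 and 1150 in Eed-/- and 721 and 586 in the arrays labelled Jarid2-/-, below its 3520 and 3523 in Ezh2-/- (log2 1.96 against the mean, adjusted p = 1.4e-05). Apoa2 and Meis1 lay between wild type and Ezh2-/- in the Eed-/- arrays, at 721 and 549 and at 397 and 398, but in the arrays labelled Jarid2-/- they read 160 and 148 and 101 and 71.2, not past the threshold against wild type (adjusted p = 0.18 and 0.79). Olig2 was lower in Ezh2-/- than in the other mutants, which read 1321 and 1400 and 1858 and 1806 (log2 -0.69, SE 0.08, adjusted p = 0.00062). Esam, an endothelial adhesion molecule (at least 3.94-fold above the arrays labelled Jarid2-/-, adjusted p = 0.00063 against the mean of both), and Gbx2, a homeodomain factor (log2 1.82, adjusted p = 0.0018), were also higher than in the mutants.

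Of the genes lower than in the other mutants, Rpl39l read 6314 and 6320 in Eed-/- and 5469 and 4444 in the arrays labelled Jarid2-/-, against 426 and 458 in Ezh2-/- (log2 -3.61, SE 0.09, adjusted p = 8.2e-08). Fxyd6 read from 952 to 2093 in the other 6 arrays and 106 and 101 in Ezh2-/-, at least 11.6-fold below Eed-/- and 9.12-fold below the arrays labelled Jarid2-/- (adjusted p = 2.1e-05 against their mean). Dpys was reduced in Eed-/- as well, to 601 and 614, but read 1780 and 2362 in the arrays labelled Jarid2-/-, against 36.9 and 30.4 in Ezh2-/-, at least 4.1-fold below the former and 14-fold below the latter (adjusted p = 2.5e-07). For Rpl39l and Fxyd6 the Ezh2-/- arrays stood apart from all 6 others, and for Dpys the Eed-/- arrays lay between. Lack of overlap with the other mutants was again a condition for choosing these genes. Gbp2 was intermediate in both other mutants, at 591 and 876 and at 499 and 574 (adjusted p = 3.5e-05 for Ezh2-/- against their mean), whereas Gbp2b in the arrays labelled Jarid2-/-, at 26.3 and 27.4, was within the negative controls as in Ezh2-/-. Tagln read 3000 and 5667 in Eed-/- and 989 and 1110 in the arrays labelled Jarid2-/-, against 402 and 312 in Ezh2-/- (log2 -2.50, SE 0.27, adjusted p = 0.00049). Col1a1 was within the negative controls in all 3 mutants.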

How the data were processed

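Total RNA from mouse embryonic stem cells was hybridized as biotin-labelled cRNA to Affymetrix Mouse430A_2 arrays, per the labels' protocols. The deposited values are linear signal intensities per probe set. Each of the 8 value columns equals 1 column of the authors' dChip table at every probe set, and per the file headers that table holds model-based expression with a baseline array, an outlier check and no log. That table has 12 columns, which were used only for this match and entered no fit. Replicate labels did not pair the samples (correlations of deviations from 0.008, for wild type with Ezh2-/-, to 0.411, for wild type with the arrays labelled Jarid2-/-, and over 0.1 in 2 of the 6 pairs of groups).

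After 64 control probe sets were left out, log2(signal + 16), with signals below 1 set to 1, was fitted in limma 3.58.1 (R 4.3.3) over all 8 arrays with a mean per genotype and an intensity trend, and p-values were Benjamini-Hochberg adjusted over 22626 probe sets. The fit was tested on simulated data. Of these, 20380 have 1 gene symbol, 691 several and 1555 none; a gene is its brightest probe set with 1 symbol. The number of arrays limits the precision. Named genes were PRC2 genes, the 30 largest changes each way, up to 5 called members with the smallest p and 3 bright uncalled members of each of 40 lists, the 12 largest against the other mutants each way, and 3 at each end of chromosomes that stand apart. The 12 had to pass the test against those mutants, not overlap their arrays, and have a mutant mean above the median of all signals. Counts by list are not a set test. The members and lists were chosen with earlier results of these data known. A few neighbours and promoter carriers outside this rule, among them Ifnar2, Il10rb, Kyat3, Gtf2b, Bst2 and Pou5f1, were named after their values were seen. Promoters are RefSeq entries, GRCm38.p6. The alternatives were another scaling, offsets of 1 and 64, a filter on dim probe sets, 4 arrays only, the replicate block, no trend, a mean over probe sets and leaving out each array.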

Additional observations from a re-analysis of the deposited data

Results flagged for a closer look

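Only the largest changes named against wild type or against the other mutants were searched, not all genes. In 7 of these genes the fitted changes from wild type in Ezh2-/- and in another mutant went in opposite directions, and the difference itself passed the test. The comparisons share the wild type arrays. Each difference below is Ezh2-/- minus the other mutant in fitted log2(signal + 16). Where Ezh2-/- was within the negative controls, the fold against them follows as a bound. Cd99 differed by -4.93 from Eed-/- (at least 12.4-fold lower, adjusted p = 1.2e-07) and differed by -3.83 from the arrays labelled Jarid2-/- (at least 5.77-fold lower, adjusted p = 8.1e-07). Eif2s3y differed by -6.08 from Eed-/- (at least 14.8-fold lower, adjusted p = 3.2e-08). Fmr1nb differed by -3.65 (adjusted p = 1.8e-07) and Glrx by -3.85 (adjusted p = 5.3e-07) from Eed-/-. Against wild type, Eed-/- was higher by only 0.45 for Eif2s3y (adjusted p = 0.033), 0.57 for Fmr1nb (0.0083) and 0.58 for Glrx (0.019). Cd99 was higher than in wild type by 1.54 in Eed-/- (adjusted p = 0.00018) and by 0.43 in the arrays labelled Jarid2-/- (0.043). Mep1b, a metalloprotease subunit, fell in Ezh2-/- (at least 1.47-fold) and rose in the others, so that it differed by -2.62 from Eed-/- (at least 3.11-fold lower, adjusted p = 0.00017) and -3.18 from the arrays labelled Jarid2-/- (at least 4.81-fold lower, adjusted p = 9.2e-05). Rhox6, a homeobox gene of placenta and germline on chromosome X, had both the wild type and the Ezh2-/- mean within the negative controls, so that no opposite direction can be read. It differed by -3.98 from Eed-/- (at least 9.26-fold lower, adjusted p = 1.5e-05) and by -2.24 from the arrays labelled Jarid2-/- (at least 2.64-fold lower, adjusted p = 0.00044). Abca1, which exports cholesterol, rose in Ezh2-/- (log2 1.45) and fell in the arrays labelled Jarid2-/- (-2.09), a difference of 3.54 (adjusted p = 1.8e-05), with 2 of its 3 probe sets higher in Ezh2-/-.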

How the results depend on the processing

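Results were recomputed under up to 9 processing alternatives and with each of 8 arrays left out; the mean over probe sets was not run for counts of probe sets, nor the 4 arrays alone for the comparison with the other mutants. Of the recomputed counts and chromosome medians 263 stayed within 1.5 times the reported count or within the spread between replicates and 38 did not. Of the other recomputed values, most of them for single genes, 6200 kept their side of the threshold, 82 lost a call, 110 gained one, 90 moved and 1 reversed. Leaving out an array gave 2655 to 6167 probe sets called, 931 to 2188 higher and 1724 to 3990 lower, and 1010 to 4481 against the other mutants; by list it gave 8 to 14 lower IGF and matricellular genes, 7 to 13 lower S100 and annexin genes, 8 to 13 lower axon guidance genes, 6 to 13 higher naive-state genes, and 233 to 404 called genes over all lists (393 as reported). Interferon genes lower ranged from 13 to 19 with an array left out, were 17 under quantile normalization and under equal medians, and 11 with the filter on dim probe sets, which tests fewer genes. Lower actin genes were 22 and 21, and higher DNA methylation genes 7 and 9, under those 2 scalings. The replicate block gave 7005 calls, 2524 higher and 4481 lower, and deviations of same-numbered arrays correlated at 0.008 for wild type with Ezh2-/-, 0.411 for wild type with Jarid2-/- and 0.244 for Eed-/- with Jarid2-/-, so that not every pair passed 0.1 and the block was not used. Relative to all genes, chromosome 8 was at -0.268 as reported, -0.253 after quantile normalization, -0.258 with an offset of 64 and -0.242 with the mean over probe sets. Chromosome 19 was at -0.151, -0.149 and -0.124 under the same 3 settings (-0.158 as reported), and X at -0.145 after quantile normalization and -0.156 with the mean over probe sets (-0.135 as reported). With an array left out, chromosome 8 ranged from -0.279 to -0.263, chromosome 1 from -0.223 to -0.176, chromosome 19 from -0.164 to -0.14, chromosome 11 from -0.122 to -0.089 and X from -0.161 to -0.135. Ugt8a, an oligodendrocyte enzyme not past the threshold (-0.02), reached 0.34 with the mean over probe sets; the cause was not tested. With 2 arrays a group, signals near the negative controls give bounds only.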
